A study of Mus musculus with 24 samples.

Results

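The insulin-like growth factor (IGF) axis was followed in 24 aorta RNA libraries through 10 of the 41128 genes in the deposited count table. These were the ligands Igf1 and Igf2, the receptors Igf1r and Igf2r, and the binding proteins Igfbp2, Igfbp3, Igfbp4, Igfbp5, Igfbp6 and Igfbp7, each taken by its gene symbol. All 10 were found, and all 10 were among the 16316 genes left by the filter on low counts. The axis was chosen by the counts of Igfbp2, which showed the largest rise with angiotensin II (AngII) among the genes called, so the members' AngII values below are a description and carry no p-value. Comparisons between genotypes and between sexes were not themselves used in that choice and were tested. For Igfbp2, the genotype comparisons share libraries with the AngII difference that chose it, so they are not independent of the choice.

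The series asks what the catalytic beta subunit of calcineurin, encoded by Ppp3cb, contributes to the vascular changes that AngII causes. Calcineurin is a phosphatase that is switched on by calcium and calmodulin and acts on the NFAT transcription factors. Mice of 5 months carried the Ppp3cb knockout (KO; strain B6,129S6-Ppp3cbtm1Jmk/J) or were wildtype (WT). They received AngII from minipumps at 500 ng per kg body weight per min for 4 weeks, or served as controls, and it is not stated whether a pump was placed in the controls. The 8 groups of 3 libraries each were KO AngII male, KO AngII female, KO control male, KO control female, WT AngII male, WT AngII female, WT control male and WT control female. No tissue-specific driver is named for the knockout. The replicates of a group are numbered, but nothing says that each came from a different mouse, so p-values measure the spread between these samples.

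IGF-I and IGF-II are secreted peptides that signal through the tyrosine kinase receptor Igf1r to PI3K, Akt and MAP kinases, whereas Igf2r, the cation-independent mannose 6-phosphate receptor, takes up IGF-II for breakdown without signalling growth. The binding proteins hold IGFs outside the cell and limit their access to Igf1r until proteases release them. In the vessel wall, smooth muscle cells and fibroblasts make IGF-I and several binding proteins, and much of the IGF-I and IGFBP in blood comes from the liver.

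Library totals were 1523328 to 6352365 counts, with a median of 3835993, and 2205 to 15009 counts per library fell on the 10 genes. Ppp3cb itself was at 21.3 ± 6.11 CPM (counts scaled to a common library size after TMM normalization) in KO libraries and 41.9 ± 10.8 CPM in WT libraries (SD, n = 12 each). It was called lower in KO (log2 change -1.01 ± 0.16 SE, adjusted p = 0.00018, edgeR quasi-likelihood test with Benjamini-Hochberg adjustment). The aorta label fitted the marker genes: smooth muscle markers summed to 6275 to 19572 CPM. Only 2 of 7 listed hepatocyte markers, Serpina1a and Ahsg, passed the filter on low counts, and they summed to 0 to 7.56 CPM. Alb did not pass it, with 63 counts over all 24 libraries. Apoa1 lies on chromosome 9, all of whose genes are listed at 0 counts, and was treated as not measured. The 3 KO control female libraries stood apart. They held the fewest counts (1523328 to 2401264), and olfactory and vomeronasal receptor genes took 1002 to 1992 CPM of the protein-coding counts there, against 111 to 1073 in the other 7 groups. Several results that rest on them are therefore also given without them. For AngII in KO, KO against WT in controls and the genotype by AngII interaction, that left a comparison of males only. Between the sexes, it also took the KO control males out of the comparison.

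The 10 genes lie on 7 chromosomes (mm10, GENCODE M21). Igfbp2 (chr1:72824503-72852474, plus strand) and Igfbp5 (chr1:72857932-72874884, minus strand) are neighbours, with their 3′ ends facing each other across 5457 bases. The promoter windows of these neighbours are shown because Igfbp2 had the widest AngII difference of the axis and Igfbp5 one of the smallest, and because NFAT, the best known target of calcineurin, binds sites with the core GGAAA. Each window runs from 250 bases before to 50 bases after the RefSeq start (GRCm38.p6), 5′ to 3′ on the gene's strand. Capitals mark the NFAT core (GGAAA, or TTTCC on the other strand) and the GC box (GGGCGG, or CCGCCC on the other strand), searched on both strands, and no match overlapped another.
Igfbp2, chr1:72824230-72824529, plus strand: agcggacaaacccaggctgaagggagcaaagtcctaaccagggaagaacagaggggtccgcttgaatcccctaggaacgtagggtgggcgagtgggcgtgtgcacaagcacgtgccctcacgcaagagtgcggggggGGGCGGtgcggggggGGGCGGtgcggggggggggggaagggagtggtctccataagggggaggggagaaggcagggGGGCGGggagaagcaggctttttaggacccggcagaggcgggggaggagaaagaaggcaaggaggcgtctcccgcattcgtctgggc
Igfbp5, chr1:72874816-72875115, minus strand: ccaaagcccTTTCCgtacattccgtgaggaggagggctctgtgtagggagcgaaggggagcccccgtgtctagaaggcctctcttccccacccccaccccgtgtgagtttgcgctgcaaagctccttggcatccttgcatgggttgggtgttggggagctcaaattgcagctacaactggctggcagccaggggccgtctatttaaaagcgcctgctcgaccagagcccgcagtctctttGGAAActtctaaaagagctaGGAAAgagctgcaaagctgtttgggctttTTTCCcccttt
The Igfbp2 window held 3 GC boxes and no NFAT core. The Igfbp5 window held 4 NFAT cores, 2 on each strand, and no GC box. Of 32851 RefSeq promoter windows of the same length, 61.3% held at least 1 NFAT core and 35.7% at least 1 GC box. A second RefSeq start of Igfbp2 had 1 NFAT core in its window. These letters are a description of the sequence and say nothing of binding.

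Levels can be compared between genes only per exon length. As medians over the 24 libraries, the order in CPM per kb was Igfbp7 (379), Igfbp5 (181), Igfbp4 (63.1), Igfbp6 (27.4), Igf2r (19.3), Igf2 (12.2), Igf1 (6.64), Igfbp2 (4.41), Igf1r (3.83) and Igfbp3 (2.26). The ranges of each pair of neighbours in that order overlapped, so single steps of the order are within the spread between libraries. Igfbp7, a low-affinity IGF binder that is also known as angiomodulin, ranged from 199 to 800 CPM per kb. Igfbp5, which binds extracellular matrix, ranged from 78.1 to 352 CPM per kb. The transcripts of Igfbp7, Igfbp5, Igfbp4 and Igfbp6 thus led both ligands and both receptors by median level. Igfbp2 ranged from 0 to 60.7 CPM per kb. In WT AngII libraries it averaged 28.0 ± 17.6 CPM per kb, against 1.88 ± 1.43 CPM per kb in WT control libraries (SD, n = 6 each). Counts for Igf2 come with a limit: 62.8% of its exon length is shared with Gm49394 on the same strand, which is not a row of the table, and 98 exonic bases face Igf2os. Igfbp7 shares 85 exonic bases with Polr2b on the opposite strand, and whether counting used strand is not stated.

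**Figure D1:**
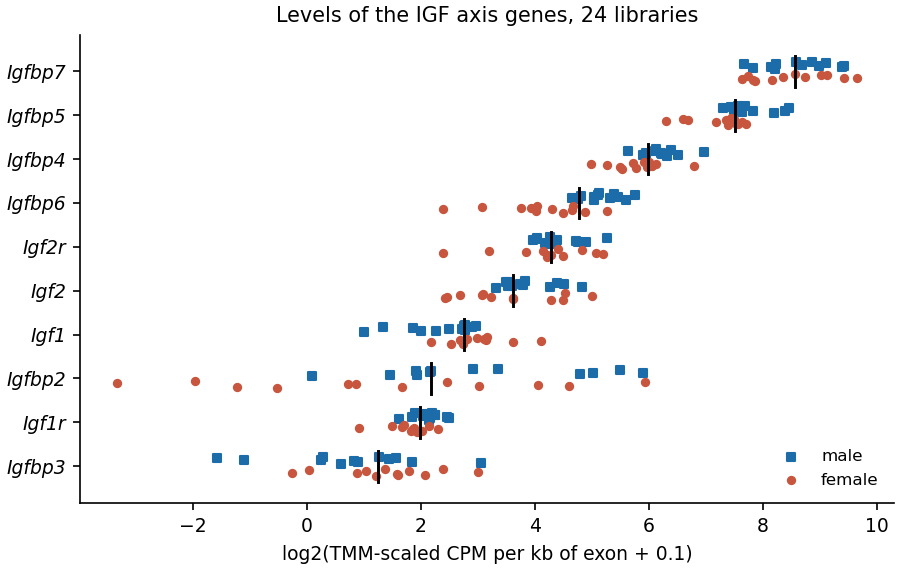
Levels of the 10 IGF axis genes in 24 aorta libraries, as log2 of TMM-scaled CPM per kb of exon plus 0.1, with 1 point per library (squares, males; circles, females). Igfbp7 and Igfbp5 lie at the high end (medians 379 and 181 CPM per kb), and Igfbp2 spreads from 0 to 60.7 CPM per kb.

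Igfbp2 encodes a secreted binding protein with an integrin-binding motif. Its transcript stood at 50.7, 59.7 and 109.8 CPM in WT AngII males and at 14.8, 44.7 and 30.5 CPM in WT AngII females. In WT controls it was at 1.77, 6.84 and 4.89 CPM in males and at 1.10, 5.65 and 0.608 CPM in females. The lowest WT AngII library was above the highest WT control library. The means were 51.7 ± 32.6 and 3.48 ± 2.64 CPM in WT AngII and WT control libraries (SD, n = 6 each). The fitted difference was 3.73 ± 0.68 on the log2 scale, or 13.3-fold, with 4.0 ± 0.95 in males and 3.47 ± 0.98 in females. Among all 16316 genes it ranked 18th by size, and it was first among the 34 genes called. Igfbp2 was the only member whose WT AngII and WT control libraries did not overlap, where 0.65% of all genes did not. In RNA from whole aorta, more cells of a type and more RNA per cell cannot be told apart.

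In KO libraries Igfbp2 was also higher under AngII, with a much wider spread. KO AngII males had 83.2, 13.7 and 18.6 CPM, and KO AngII females had 112.2, 9.97 and 0.291 CPM, from 425, 27 and 1 counts. KO control males had 8.06, 8.21 and 6.80 CPM, and KO control females had 3.18, 2.88 and 0 CPM. A count of 0 in that last library allows up to 1.66 CPM (3 counts), and such limits cover counting error only. Of 6 KO AngII libraries, 5 were above every KO control library and 1 was among the lowest of all 24. The means were 39.7 ± 46.3 and 4.86 ± 3.34 CPM in KO AngII and KO control libraries, and the fitted difference was 3.29 ± 0.70 on the log2 scale. Without KO AngII female replicate 1, the library with the highest value, the difference was 1.78. Small RNA genes took 40.9% of that library's counts, against 18.2% and 9.66% in the other KO AngII females and 30.4% to 40.5% in KO AngII males. Its olfactory and vomeronasal receptor share, 1073 CPM, was within the range of the KO control females. The part of this in its Igfbp2 level was not tested. The fitted difference was 3.60 without KO AngII female replicate 3, and 2.31 without the KO control females, with males only compared. The WT difference moved less, between 3.52 and 4.56 when any 1 library was left out, the upper value arising without WT control female replicate 2.

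**Figure D2:**
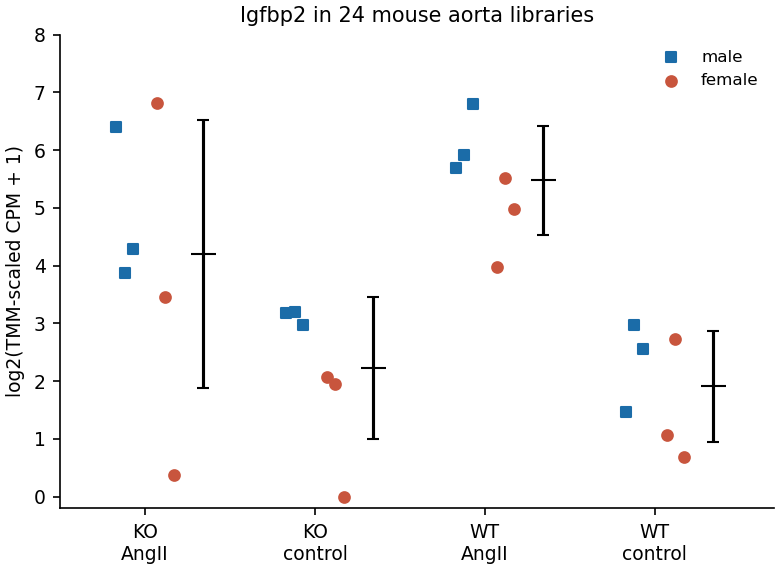
Igfbp2 in each library as log2(TMM-scaled CPM + 1), by genotype and treatment, with squares for males, circles for females and a bar for the mean ± SD of 6 libraries. All 6 WT AngII libraries (14.8 to 109.8 CPM) lie above all 6 WT controls (0.608 to 6.84 CPM), and the KO AngII libraries span 0.291 to 112.2 CPM.

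Both ligands differed between WT AngII and WT control libraries on the fitted scale, in opposite directions, but with overlapping libraries. Igf1, the main growth-promoting ligand after birth, had 66.3, 54.8 and 64.7 CPM in WT AngII males and 43.5, 120.4 and 170.6 CPM in WT AngII females. WT control males had 18.9, 46.7 and 38.7 CPM, and WT control females had 56.1, 65.4 and 65.0 CPM. The log2 difference was 0.83 ± 0.26 in males and females together, with 2 of the 3 WT AngII females far above all other WT libraries. In KO the Igf1 difference was 0.33 ± 0.26, and the KO AngII libraries lay close together at 66.0 to 87.4 CPM, against 24.1 to 86.0 CPM in KO controls. Igf2, the ligand of fetal growth and an imprinted gene, had a lowest, median and highest level of 30.2, 67.4 and 78.8 CPM in WT AngII libraries and 56.5, 109.8 and 160.8 CPM in WT control libraries. Its log2 difference was -0.52 ± 0.31 in KO and -0.93 ± 0.32 in WT.

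Of the receptors, Igf1r differed less than Igf2r on the fitted scale. Igf1r was between 58.6 and 92.4 CPM in WT AngII libraries and between 49.97 and 73.1 CPM in WT control libraries, and its log2 difference was 0.07 ± 0.19 in KO and 0.20 ± 0.19 in WT. Igf2r was at 181, 263 and 338 CPM (lowest, median, highest) in WT AngII libraries and at 168, 171 and 208 CPM in WT control libraries. Its log2 difference was 0.85 ± 0.22 in KO, and 0.57 ± 0.22 in WT. Within KO it was 0.48 ± 0.31 in males and 1.22 ± 0.32 in females. Without the KO control female group, which again left males only, it was 0.50.

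Of the other binding proteins, Igfbp7 differed most in WT after Igfbp2 and Igfbp3. WT AngII libraries had 805, 614 and 825 CPM in males and 240, 967 and 828 CPM in females, against 358, 274 and 339 CPM in WT control males and 281, 343 and 273 CPM in WT control females. In 5 of 6 WT AngII libraries Igfbp7 was above every WT control, and WT AngII female replicate 1 was below all of them. The log2 difference was 0.60 ± 0.24 in KO and 1.20 ± 0.24 in WT. Igfbp3, the main IGF carrier of blood, was low throughout, at 1.15 to 9.01 CPM in WT AngII and 4.44 to 25.7 CPM in WT control libraries, and its log2 difference was -0.71 ± 0.53 in KO and -1.29 ± 0.54 in WT. Igfbp4, a binding protein cut by the protease Pappa, averaged 352 ± 79.7 and 254 ± 56.1 CPM in WT AngII and WT control libraries (0.49 ± 0.21). Igfbp5 averaged 1110 ± 164 and 1388 ± 399 CPM in the same groups (-0.30 ± 0.22). Igfbp6, which prefers IGF-II, averaged 35.5 ± 11.04 and 32.6 ± 12.1 CPM (0.15 ± 0.27). In KO the differences of Igfbp4, Igfbp5 and Igfbp6 were 0.13 ± 0.21, 0.03 ± 0.22 and 0.49 ± 0.28. The axis was therefore not one block: 8 members were higher and 2 lower in KO AngII libraries, and 7 were higher and 3 lower in WT AngII libraries. Some of these signs rested on the females. Without the KO control females, which left males only, the KO values of Igf1r (-0.11), Igfbp4 (-0.08) and Igfbp5 (-0.31) were below 0. The median log2 difference of the 10 members was 0.23 in KO, beside 0.01 over all genes, and 0.34 in WT, beside -0.01.

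At an adjusted p under 0.05 (edgeR quasi-likelihood test, Benjamini-Hochberg over 16316 genes), 2 of 10 members, Igfbp2 and Igfbp7, were called for AngII in WT, where 0.208% of all genes were called. Since AngII differences chose the axis, nothing is read from that count. The same holds for the calls of members given next, with libraries left out and in KO, which are a description. With 1 library left out, Igfbp7 was called in 18 of 24 fits, the call being lost without replicate 2 or 3 of the WT AngII females, replicate 3 of the WT AngII males, replicate 1 or 3 of the WT control females or replicate 2 of the WT control males. For AngII in KO, 0 of 10 members and 0% of all genes were called, with 1258 genes at an unadjusted p under 0.05. DESeq2 called 20 genes there and limma-voom 0, none of them a member. Without KO control female replicate 2 edgeR called Igfbp2 and Igf2r, and without KO AngII female replicate 3 it called Igfbp2.

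**Figure D3:**
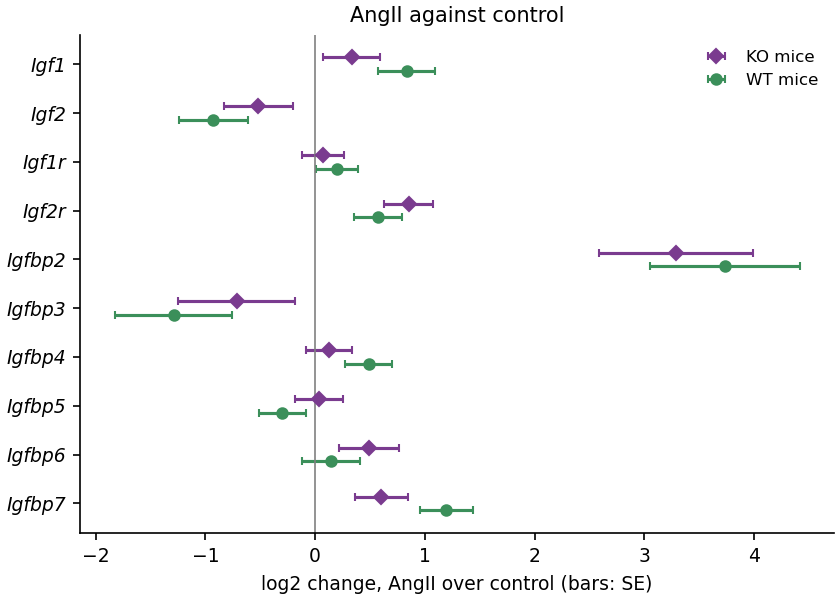
Log2 difference between AngII and control libraries for each member, with bars for ± SE, in KO (diamonds) and WT (circles). Igfbp2 stands at 3.29 in KO and 3.73 in WT, and the other members lie between -1.29 and 1.20.

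Marker genes of several cell types differed between the same groups. Fibroblast markers summed to 790 to 1985 CPM in WT AngII and 609 to 948 CPM in WT control libraries, with 6 of 7 higher and Col15a1 called. Chondrocyte markers summed to 44.3 to 178 CPM in WT AngII and 25.6 to 86.9 CPM in WT control libraries, with 3 of 5 tested higher and Acan called. Macrophage markers summed to 110 to 160 CPM and 66.3 to 102 CPM in these groups, with 7 of 8 tested higher and 0 called by edgeR. Markers of dividing cells summed to 10.7 to 83.2 CPM in WT AngII and 1.77 to 14.1 CPM in WT control libraries, with 4 of 4 tested higher and Mki67 called. No listed marker of these types was at 0. The 7 tested markers of Schwann cells and neurons were all lower, with a median log2 difference of -1.61. Their sums were 8.63 to 51.5 CPM in WT AngII and 17.4 to 151 CPM in WT control libraries, with medians of 21.5 and 25.9 CPM. The highest sum was that of a WT control male, where the median of that group was 29.6 CPM and WT control females reached 54.1 CPM. Of 7 endothelial markers 6 were lower (median -0.71), and 4 of 4 cardiac muscle markers were higher (median 1.32), with 0 called by edgeR in these 3 lists. Smooth muscle markers, without Cnn1 and Tagln, which lie on chromosome 9, gave 11318 to 19264 CPM and 12095 to 18938 CPM. In KO no listed marker was called for AngII. There 7 of 7 Schwann cell and neuron markers were lower (median -2.33), 7 of 8 macrophage markers were lower (median -0.47) and 5 of 7 fibroblast markers were higher (median 0.18). The macrophage sums overlapped, at 93.2 to 242 CPM in KO AngII and 80.7 to 505 CPM in KO control libraries, with medians of 116 and 124 CPM. The value of 505 CPM came from KO control male replicate 2 alone. The part of these cells in the differences of Igfbp2, Igfbp7 and the other members was not tested. The 2 tested hepatocyte markers summed to at most 7.38 CPM in WT AngII and 5.19 CPM in WT control libraries.

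The genotype comparison asked whether loss of Ppp3cb altered the axis. In control libraries 0 of 10 members were called between KO and WT, where 0.221% of all genes were called by edgeR. Igfbp2 averaged 4.86 ± 3.34 CPM in KO controls and 3.48 ± 2.64 CPM in WT controls (SD, n = 6 each). Its log2 difference was 0.19 ± 0.79 (adjusted p = 0.970, edgeR), with a 95% interval of -1.41 to 1.799, so a difference of several-fold either way was within the error. Igf2r had the smallest p of the members, with 193, 144 and 153 CPM in KO control males and 47.8, 133 and 84.2 CPM in KO control females. WT controls were at 191, 169 and 168 CPM in males and 171, 208 and 171 CPM in females. The log2 difference of -0.58 ± 0.22 (adjusted p = 0.359, edgeR) was made up of -0.11 ± 0.31 in males and -1.04 ± 0.32 in females. Igfbp5 and Igfbp6 showed the same split, with -0.22 ± 0.31 and -0.18 ± 0.37 in males and -0.71 ± 0.31 and -0.98 ± 0.40 in females. The difference between the sexes was not tested here, and the female values rest on the 3 KO control female libraries that stood apart. Over both sexes Igfbp5 was -0.46 ± 0.22 and Igfbp6 -0.58 ± 0.28 (adjusted p = 0.489 and 0.497, edgeR). Igf2r was called only without KO control female replicate 2 (-0.84, adjusted p = 0.0408, edgeR). Without the whole KO control female group, which left males only, it was at -0.13.

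Under AngII the genotypes differed in 0 of 10 members as well, where 0.355% of all genes were called, and no member had an unadjusted p under 0.05. DESeq2 and limma-voom called no member in either genotype comparison. Igfbp2 averaged 39.7 ± 46.3 CPM in KO AngII and 51.7 ± 32.6 CPM in WT AngII libraries, a log2 difference of -0.25 ± 0.58 (adjusted p = 0.996, edgeR; 95% interval -1.42 to 0.93). Both genotype values of Igfbp2 share WT libraries with the AngII difference that chose it, and are not independent of that choice. Igf1 was at -0.18 ± 0.26, Igf2 at 0.35 ± 0.32, Igf2r at -0.30 ± 0.22 and Igfbp7 at -0.31 ± 0.24. Of the 10 log2 differences, 8 were below 0, with a median of -0.23 beside 0.01 over all genes.

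The interaction asked whether the AngII difference was of another size in KO than in WT. No member and 0% of all genes were called (edgeR), with 657 genes and 0 members at an unadjusted p under 0.05, and DESeq2 and limma-voom called 0 genes as well. For Igfbp2, whose WT difference chose it, the KO minus WT value is a description: -0.44 ± 0.98, and between -1.96 and -0.13 with any 1 library left out, the lower value without KO AngII female replicate 1. It was 0.80 with females only, -1.66 with males only and -1.84 with limma-voom, so its sign depended on the libraries used. Without the KO control female group, which again left males only, it was -1.66. Igfbp7 was closest to a difference, at -0.60 ± 0.34 (adjusted p = 1.00, edgeR), with a 95% interval of -1.29 to 0.10. Igf1 followed at -0.50 ± 0.37 (95% interval -1.25 to 0.24). Both intervals hold 0.

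The sex comparison set 12 libraries against 12. Between males and females, averaged over the 4 combinations of genotype and treatment, 3 of 10 members were called (Igf1 lower in males, Igfbp5 and Igfbp6 higher), where 5.27% of all genes were called by edgeR, 1.83% lower and 3.44% higher in males. Igf1 had a lowest, median and highest level of 18.9, 59.8 and 76.1 CPM in males and 43.5, 72.9 and 170.6 CPM in females. The means were 52.6 ± 19.5 and 82.3 ± 33.9 CPM in males and females (SD, n = 12 each), and the log2 difference was -0.66 ± 0.18 (adjusted p = 0.0275, edgeR). It was -0.16 ± 0.36 in KO AngII, -0.81 ± 0.37 in KO control, -0.85 ± 0.36 in WT AngII and -0.84 ± 0.37 in WT control libraries. The fitted Igf1 difference was thus of like size in 3 of the 4 combinations and smaller in KO AngII libraries.

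Igfbp6 had the widest called sex difference of the axis. Its lowest, median and highest levels were 28.0, 38.3 and 59.8 CPM in males and 5.73, 19.9 and 42.8 CPM in females, with means of 40.9 ± 9.81 and 21.7 ± 10.3 CPM. The log2 difference was 0.97 ± 0.19 (adjusted p = 0.00255, edgeR), and it was 1.38 ± 0.39 in KO AngII, 1.46 ± 0.40 in KO control, 0.39 ± 0.37 in WT AngII and 0.66 ± 0.38 in WT control libraries. All 3 KO males were above all 3 KO females in both treatments, while WT males and females overlapped. Such a split was not particular to Igfbp6. Males were also above all females for Igf1r, Igf2r and Igfbp2 in KO controls, Igfbp2 in WT AngII, and Igfbp4 in KO AngII and WT controls. Igf1 males were below all females in WT controls. The share of all genes with such a split was not counted, so nothing is read from it. Igfbp5 had 949, 1188 and 2113 CPM in males and 469, 1020 and 1244 CPM in females (lowest, median, highest). Its log2 difference was 0.52 ± 0.15 (adjusted p = 0.0406, edgeR), with 1.04 ± 0.31 in KO control and 0.16 ± 0.31 to 0.55 ± 0.31 in the other combinations.

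Igf1r (0.31 ± 0.13, adjusted p = 0.178) and Igfbp4 (0.39 ± 0.15, adjusted p = 0.128) were higher in males on the fitted scale but not called by edgeR. Igfbp2 averaged 31.0 ± 36.1 CPM in males and 18.8 ± 32.5 CPM in females, a log2 difference of 0.95 ± 0.48 (adjusted p = 0.261, edgeR). Igf2, Igf2r, Igfbp3 and Igfbp7 had log2 differences of 0.23 ± 0.22, 0.21 ± 0.16, -0.54 ± 0.38 and 0.03 ± 0.17. A change of the sex difference with AngII was tested, and 0 of 10 members and 0% of all genes were called by edgeR, with 739 genes and 0 members at an unadjusted p under 0.05. DESeq2 called 5 genes and limma-voom 0 there, and neither called a member.

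The sex calls rested unevenly on the libraries. Within single combinations, 718 genes were called between males and females in KO controls, 2 in WT AngII and 0 in the other two combinations (edgeR). Without the KO control female group, and so without KO controls in the comparison, Igfbp6 stayed called at a log2 difference of 0.81. Igf1 was then at -0.61 (adjusted p = 0.173, edgeR) and Igfbp5 at 0.35 (adjusted p = 0.324, edgeR), and neither was called. With any 1 of the 24 libraries left out, Igfbp6 was called in 24 of 24 fits, Igf1 in 16 and Igfbp5 in 11. The Igf1 call was lost, at an adjusted p of 0.0510 to 0.0890 (edgeR), without WT control female replicate 2, WT AngII female replicate 3, KO AngII female replicate 3, WT control male replicate 1, WT AngII male replicate 2, KO control male replicates 1 and 3 or KO AngII male replicate 3. The Igfbp5 call was lost, at 0.0514 to 0.107, without WT control female replicates 1 and 3, WT AngII female replicate 2, KO control female replicate 1, KO AngII female replicate 1, WT control male replicates 1 and 3, WT AngII male replicates 1, 2 and 3, KO control male replicate 3 or KO AngII male replicates 2 and 3, each left out singly. In the other direction, Igfbp2 was called higher in males without KO AngII female replicate 1 (1.72, adjusted p = 0.00778) and Igfbp4 without KO control female replicate 3 (0.52, adjusted p = 0.0300), both by edgeR.

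Smooth muscle markers moved with sex, summing to 12095 to 19572 CPM in males and 6275 to 17044 CPM in females, or 9702 to 17044 CPM in the 9 females outside the KO control group. Of 5 tested, 5 were higher in males, and Acta2 and Smtn were called. In some other marker lists 1 gene each was called between the sexes by edgeR, and in the rest none was. Pi16 (fibroblast), C1qb (macrophage), Comp (chondrocyte) and Sox10 (Schwann cell) were called higher in males, and Ppargc1a (brown adipocyte) and Birc5 (dividing cell) lower. Most of 3 of these lists went the other way from their called gene. Only 3 of 7 fibroblast, 1 of 5 chondrocyte and 3 of 7 Schwann cell and neuron markers were higher in males. Of the others, 6 of 8 macrophage markers were higher and 5 of 6 brown adipocyte markers were lower. Markers of dividing cells were lower in males in 4 of 4 (median -0.83), at 1.77 to 45.7 CPM in males and 11.4 to 83.2 CPM in females. Small RNA genes took 17.4% to 40.7% of the counts in males (median 33.0%) and 2.83% to 40.9% in females (median 18.3%). The part of any of these in the sex differences of Igf1, Igfbp5 and Igfbp6 was not tested.

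**Figure D4:**
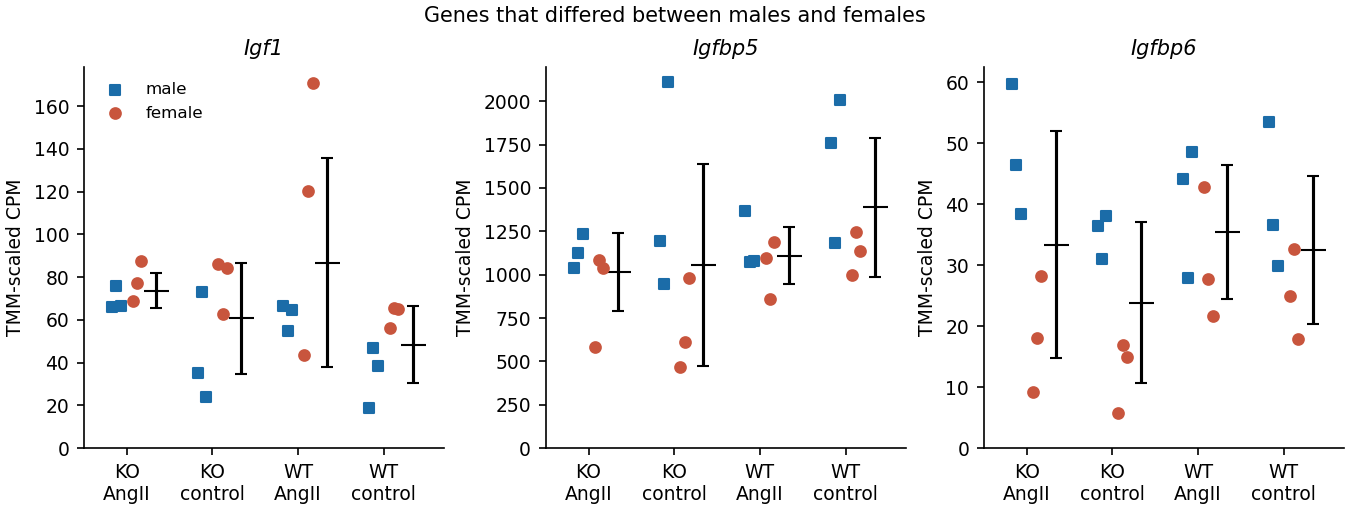
TMM-scaled CPM of Igf1, Igfbp5 and Igfbp6 in each library by genotype and treatment, with squares for males, circles for females and bars for the mean ± SD of 6 libraries. Igfbp6 lies at 28.0 to 59.8 CPM in males, and Igf1 is highest in 2 WT AngII females (120.4 and 170.6 CPM).

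The remaining genes of the pathway were read in 3 lists. The first held 23 genes of IGF handling: proteases and processing enzymes, protease inhibitors, the growth hormone receptor and other binding proteins. It also held Igf2bp1, Igf2bp2 and Igf2bp3, which bind RNA inside the cell and are not IGF binding proteins. Of the 23 genes, 19 were tested, and Igfbp1 had 0 counts in every library. Htra1, a secreted serine protease that can cut binding proteins, rose with AngII in WT, at 283 ± 93.6 CPM in WT AngII and 143 ± 17.9 CPM in WT control libraries (log2 difference 0.99 ± 0.20, adjusted p = 0.0230, edgeR). It was the only one of the 19 called there (5.26%, beside 0.208% of all genes), while 14 of the 19 log2 differences were above 0, with a median of 0.19 beside -0.01 over all genes. The call was lost in 6 of 24 fits that left out 1 library, at an adjusted p of up to 0.139 (edgeR): without replicate 1 or 3 of the WT control females, replicate 2 or 3 of the WT AngII females, replicate 3 of the WT AngII males or replicate 2 of the WT control males. Plat, the tissue plasminogen activator, was at 1.06 ± 0.30 and the gelatinase Mmp2 at 0.69 ± 0.26 (adjusted p = 0.233 and 0.505, edgeR). Pappa, the Igfbp4 protease, was not called in any comparison.

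In that list Ghr, the growth hormone receptor that drives Igf1 transcription in liver, was lower in males. It was at 101 ± 16.6 CPM in males and 174 ± 62.7 CPM in females (-0.78 ± 0.16, adjusted p = 0.00327, edgeR). Ghr stayed called with any 1 library left out and without the KO control females. This 1 of 19 genes tested is 5.26%, near the 5.27% of all genes called between the sexes. A link between Ghr and Igf1 was not tested. Of 39 genes of receptor signalling, 34 were tested and 5 (Irs4, Pik3cb, Foxo4, Nedd4 and Map2k1) had 0 counts in every library and were treated as not measured. No gene of that list was called for AngII or genotype. Between sexes, the receptor adaptor Irs2 (31.7 ± 21.4 CPM in males, 13.0 ± 8.71 CPM in females; 1.30 ± 0.34, adjusted p = 0.0202) and the kinase Akt2 (44.6 ± 8.02 and 31.1 ± 8.38 CPM; 0.54 ± 0.15, adjusted p = 0.0249) were called higher in males by edgeR. These 2 of 34 genes are 5.88%, near the 5.27% of all genes called between the sexes. In KO controls Irs2 was at -1.11 ± 0.49 against WT controls (adjusted p = 0.443, edgeR). This value rests in part on the KO control females, at 0 to 13.9 CPM, against 3.04 to 27.6 CPM in WT control females. Males had 15.7 to 28.7 CPM in KO controls and 18.9, 21.7 and 87.2 CPM (lowest, median, highest) in WT controls. Of 22 imprinted genes that are known to move with Igf2 in growth, 19 were tested. The non-coding Meg3 was called higher in males (144 ± 42.3 CPM, against 103 ± 47.7 CPM in females; 0.56 ± 0.16, adjusted p = 0.0379, edgeR), and none was called for AngII or genotype. This 1 of 19 genes is 5.26%, again near the share of all genes. Without the KO control female group the calls of Irs2, Akt2 and Meg3 were lost (adjusted p = 0.0764, 0.178 and 0.402, edgeR).

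The genes whose levels were most like that of Igfbp2 were ranked by Pearson correlation of log2 CPM over the 24 libraries, among 7578 genes with enough counts. The first was Ltbp2, a microfibril protein of the latent TGF-beta binding protein family (r = 0.861). The others were the lysyl oxidase-like Loxl3 (0.857), the basement membrane collagen Col18a1 (0.845), the lipid hydrolase Abhd2 (0.842), fibronectin Fn1 (0.826), Col4a2 (0.819), Col5a2 (0.816) and the secreted glycoprotein Dkk3 (0.811). After subtraction of the 8 group means, their correlations with Igfbp2 were 0.527 (Dkk3) to 0.758 (Ltbp2). These genes were picked on the same libraries, so high values within groups were partly set by the choice. The libraries share depth and RNA composition, and these values are a description. Within the axis, Igfbp7 was most like Igfbp2 (r = 0.720, and 0.481 after subtraction). Igfbp3 ran opposite to it (r = -0.653, and -0.410). Its chromosomal neighbour Igfbp5 had r = -0.07 over all libraries and -0.549 after subtraction.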

How the data were processed

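Total RNA from aorta was depleted of ribosomal RNA and sequenced in 24 libraries, per the labels' protocols. The authors deposited 1 table of raw counts per gene, without normalization. The submitters' processing notes name featureCounts 1.4.6, TopHat2 2.0.14 with Bowtie2 2.2.5, cutadapt 1.8.1 and build mm10; settings and strandedness are not given in the sources used here. Columns were joined to samples through the labels. Every X, Y, mitochondrial and chromosome 9 gene and the last 531 of 1749 genes listed on chromosome 8 have 0 counts and were treated as not measured, so the titled sexes could not be checked.

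Genes were filtered with filterByExpr (minimum count 10, minimum total 15), and 1 edgeR 4.0.16 quasi-likelihood model (R 4.3.3, limma 3.58.1) with TMM factors and a mean for each of 8 groups was fitted to all 24 libraries. Contrasts were averaged over sexes or over genotype and treatment, tests were two-sided, and Benjamini-Hochberg adjustment ran over all 16316 genes, called at an adjusted p under 0.05. Log2 differences carry their standard error (SE). CPM per kb used GENCODE M21 exon lengths. The model was tested on simulated data. Members, gene lists and tests were chosen with earlier results of these data known. Named were all members, every list gene called, up to 3 list genes with the smallest p, and the 8 genes most correlated with Igfbp2 (log2 CPM, prior count 2, mean of at least 3, no systematic symbol); no result came from other per-sample columns. No libraries of the same group were copies of each other (chi-square per degree of freedom within groups 6.66 to 97.3). Libraries of different groups were not compared in this way. Alternatives were DESeq2 1.42.0, RLE factors, limma-voom with quality weights, other filters and sample subsets, a replicate block, each library left out, and plain CPM.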

Additional observations from a re-analysis of the deposited data

Results flagged for a closer look

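Each member's level was checked for a library far from the other 5 in each of the 4 groups of 6 libraries, 40 checks in all, of which chance flags about 1 in 20. Of these, 2 stood out. Igfbp3 was at 24.8 CPM in KO control female replicate 1, where the other KO control libraries had 3.42 to 10.5 CPM, and the gap was 0.668 of the group's range. Igfbp5 was at 584 CPM in KO AngII female replicate 1, where the other KO AngII libraries had 1040 to 1235 CPM, and the gap was 0.700 of the range. The same library had the highest Igfbp2 level of all 24 (112.2 CPM).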

How the results depend on the processing

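With each library left out in turn, the number of members called ranged from 1 to 3 for AngII in WT (2 in the fit as reported), from 0 to 2 for AngII in KO (0), from 0 to 1 for KO against WT in controls (0) and from 1 to 4 between males and females (3). It stayed at 0 for KO against WT under AngII and for both interactions. For AngII in WT it was 5 with limma-voom, 1 with only the groups compared, 0 with females only and 1 with males only. For AngII in KO it was 2 with no filter on low counts. As AngII differences chose the axis, nothing is read from these AngII counts. Between males and females the number of members called was 1 without the KO control female group. Counts of members were otherwise within 1.5 times the reported ones.

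Directions turned only for members that were not called in the comparison. For AngII in KO, KO against WT in controls and the interaction, leaving out the KO control females left males only. In these comparisons it nearly repeats the males only setting and is not a separate check. For AngII in WT, Igfbp6 was at -0.02 with males only or without WT AngII female replicate 1. For AngII in KO, Igf1 was at -0.03 with females only. Igf1r was at -0.10 with males only, -0.11 without the KO control females and -0.05 with limma-voom, and it ranged down to -0.05 with 1 library left out. Igfbp4 was at -0.07 with males only and -0.08 without the KO control females. Igfbp5 was at -0.30 with males only, -0.31 without the KO control females, -0.03 with DESeq2 or RLE factors and -0.04 with a minimum of 50 counts in 3 libraries, and it ranged down to -0.07 with 1 library left out. In KO against WT in controls, Igf1r was at 0.17 with males only and 0.17 without the KO control females, Igfbp2 at -0.044 with limma-voom and -0.33 with females only, Igfbp3 at 0.53 and Igfbp4 at -0.03 with females only. Under AngII, males only gave 0.19 for Igf1, -0.0088 for Igf2, -0.00053 for Igfbp3 and 0.28 for Igfbp6, and females only gave 0.48 for Igfbp2. In the interaction, Igf1r was at 0.18 and Igfbp2 at 0.80 with females only, and Igf2r at -0.022 with males only and -0.028 without the KO control females. Between the sexes, Igf2r was at -0.0059 without the KO control females, and Igfbp7 at -0.018 with DESeq2, -0.018 with RLE factors and -0.033 with a minimum of 50 counts in 3 libraries. With 1 library left out, the log2 differences of KO against WT in controls ranged from -0.018 to 0.45 for Igf1, -0.58 to 0.084 for Igf2, -0.26 to 0.018 for Igf1r, -0.095 to 0.97 for Igfbp2, -0.62 to 0.10 for Igfbp3 and -0.22 to 0.18 for Igfbp4. Under AngII they ranged from -0.39 to 0.027 for Igf1, -0.055 to 0.59 for Igf2, -1.78 to 0.013 for Igfbp2 and -0.087 to 0.57 for Igfbp3. The Igf1r interaction ranged from -0.25 to 0.018 and the Igfbp7 sex difference from -0.042 to 0.15. Igfbp5 lost its sex call with RLE factors (0.48, adjusted p = 0.0506, edgeR), and Igfbp2 gained one with no filter (0.98, adjusted p = 0.00157, edgeR). The cause was not tested.

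Replicate numbers gave little sign of pairing by correlation: of 24 pairs, 1 had a correlation of deviations over 0.1 (range -0.02 to 0.13). Of 3 candidates each, 12 were closest to their own number, more than an even split over the candidates gives. Pairing was therefore not excluded. With the replicate number as a block, 2 members were called for AngII in WT and 3 between the sexes, and 0 in the other comparisons, as without it. Counts were 3 or fewer in 4 libraries for Igfbp2, in 1 for Igfbp3 and in 0 for the other members.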

Other observations

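KO AngII female replicate 3 had 1 Igfbp2 count (0.291 CPM), yet its levels of Col1a1, a fibrillar collagen chain, and of the matricellular proteins Postn and Sparc were 829, 1010 and 764 CPM. The 3 KO control females had 318 to 556 CPM of Col1a1, 439 to 527 CPM of Postn and 304 to 493 CPM of Sparc. The KO control males, at 793 to 1386 CPM of Col1a1 and 701 to 815 CPM of Sparc, overlapped with that library, but their Postn was lower, at 490 to 772 CPM. These 3 genes were chosen after their values were seen, and no test was run.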
